A study of Mus musculus with 24 samples.

Results

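The 10 apolipoprotein genes Apoa1, Apoa2, Apoa4, Apoa5, Apob, Apoc1, Apoc3, Apod, Apoe and Apom were examined in 4 tissues (liver, brain, heart and skeletal muscle) from Rap1 knockin (KI) and wild-type (WT) mice. The members were taken by gene symbol: every probe whose RefSeq mRNA maps to 1 of these symbols was used, which gave 14 of the 55681 probes of the array and 10 of the 21370 genes with a name. Gene expression was measured on 1-colour Agilent arrays in 6 female mice, each of which gave all 4 tissues, so that the 24 arrays formed 8 groups of 3. The KI mice carried the point mutation I312R in Rap1 (gene symbol Terf2ip), made with CRISPR/Cas9 and crossed back to C57BL6. They were homozygous, and the controls were WT littermates. Letters stand for mice here, with A to C for KI and D to F for WT. Mice C and F were 14 months old and the other mice were 15 months old, and no mouse received a treatment named in the labels. The mutation was present in all cells of the KI mice, so these arrays do not separate an effect within a tissue from one that arises elsewhere in the body.

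Apolipoproteins are the protein part of lipoproteins, the particles that carry triglyceride and cholesterol through blood. Apolipoprotein B holds the liver's very-low-density lipoprotein and its product low-density lipoprotein together, apolipoproteins A-I and A-II form the frame of high-density lipoprotein, and the small C proteins, A-V and E move between particles and set how fast lipases and receptors act on them. Most are known as secreted products of hepatocytes, while apolipoprotein E is also made by astrocytes and macrophages, and apolipoprotein D, a lipocalin unrelated in fold to the others except apolipoprotein M, is known from glia and peripheral tissues.

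A level is given as log2 of the processed spot signal minus the 75th percentile of all probes on the same array, so that a level of 0 lies at that percentile and a step of 1 is a doubling. Levels are compared only within 1 probe. A probe was counted as well above background where the scanner software had marked it so. The 75th percentile ranged from 269.5 to 2198.4 among arrays (signal units), with 49.4% to 68.4% of probes well above background. The defining markers of each labelled tissue were present in all its arrays. The mean level of 12 hepatocyte markers was 8.26 to 9.03 in the livers, that of 5 neuron markers 5.23 to 5.47 in the brains, that of 5 cardiomyocyte markers 5.85 to 8.55 in the hearts and that of 6 skeletal muscle markers 9.23 to 9.60 in the muscles. The brain of KI mouse C stood apart, with a hepatocyte mean of 3.94 against -5.75 to -2.31 in the other 5 brains, and the differences between genotypes in brain are given with and without it. Its fibroblast mean was 1.86 against 0.46 to 0.66 in the other 5 brains, and its mammary epithelium mean -2.29 against -3.80 to -3.19. In liver C the fibroblast mean was 2.32 and the mammary epithelium mean -2.30. Single fibroblast markers differed in direction, with Col1a1 higher in brain C than in liver C (2.25 and 1.25) and Dcn lower (4.12 and 6.91). The mammary marker Wfdc18 stood higher in brain than in liver in every mouse, at 1.61 and -2.93 in mouse C and at -0.18 and -2.74 in mouse A. Lesser traces of other tissues were present in KI liver C, with a skeletal muscle fibre mean of 0.98 (6 of 6 markers well above background, summed linear level 17.6) against -6.67 to -5.57 (sums of 0.0944 to 0.174) in the other 5 livers, and in KI muscle B, with a mammary epithelium mean of -0.42 against -4.24 to -3.88 in the other 5 muscles. Their part in the values below was not tested. Terf2ip did not pass the threshold between genotypes in any tissue by limma (differences from -0.33 in liver to -0.07 in muscle, adjusted p from 0.523 to 1), and a level cannot check a point mutation.

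RefSeq start sites of 8 of the 10 genes had a promoter window in the table used here, of 250 bases before and 50 after the start. The windows printed are those of 4 genes with a large excess of transcript in liver and of Apod, which had the opposite pattern, so that both can be read side by side. They are given 5′ to 3′ on the gene's own strand in the assembly GRCm38.p6. Capitals mark TATAAA (the TATA box) and CAAAGTNCA (a part of the kind of direct repeat that the hepatocyte factor HNF4A is known to bind), both searched on either strand. No marked stretch overlaps another.
Apoa1 (chr9:46228380-46228679, + strand): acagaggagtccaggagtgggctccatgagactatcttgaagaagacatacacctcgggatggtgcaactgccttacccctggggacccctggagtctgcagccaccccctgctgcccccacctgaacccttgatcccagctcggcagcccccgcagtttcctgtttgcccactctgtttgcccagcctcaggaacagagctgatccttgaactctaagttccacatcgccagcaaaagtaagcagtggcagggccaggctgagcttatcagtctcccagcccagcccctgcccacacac
Apoa4 (chr9:46240594-46240893, + strand): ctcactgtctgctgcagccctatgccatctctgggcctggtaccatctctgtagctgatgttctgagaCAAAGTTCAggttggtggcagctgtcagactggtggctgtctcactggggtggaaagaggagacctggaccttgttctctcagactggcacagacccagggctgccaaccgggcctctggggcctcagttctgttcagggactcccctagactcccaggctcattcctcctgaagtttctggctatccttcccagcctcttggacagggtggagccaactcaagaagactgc
Apoa5 (chr9:46268358-46268657, + strand): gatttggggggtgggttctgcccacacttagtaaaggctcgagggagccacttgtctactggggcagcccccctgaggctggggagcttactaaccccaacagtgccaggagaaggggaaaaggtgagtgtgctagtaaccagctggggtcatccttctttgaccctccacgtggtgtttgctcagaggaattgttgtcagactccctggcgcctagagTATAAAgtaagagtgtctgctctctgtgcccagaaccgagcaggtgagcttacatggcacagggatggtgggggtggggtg
Apob (chr12:7977427-7977726, + strand): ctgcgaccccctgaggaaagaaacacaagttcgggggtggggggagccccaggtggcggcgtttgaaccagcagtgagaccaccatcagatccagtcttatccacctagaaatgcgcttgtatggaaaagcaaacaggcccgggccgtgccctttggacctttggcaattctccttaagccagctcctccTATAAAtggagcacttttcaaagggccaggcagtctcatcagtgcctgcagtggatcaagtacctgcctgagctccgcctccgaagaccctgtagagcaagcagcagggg
Apod (chr16:31314759-31315058, - strand): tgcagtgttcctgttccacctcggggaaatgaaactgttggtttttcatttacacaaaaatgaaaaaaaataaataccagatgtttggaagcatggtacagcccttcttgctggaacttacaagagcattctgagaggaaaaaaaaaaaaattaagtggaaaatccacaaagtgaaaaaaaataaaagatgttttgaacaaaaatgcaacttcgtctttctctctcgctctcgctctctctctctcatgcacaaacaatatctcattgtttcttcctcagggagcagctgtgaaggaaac
CAAAGTNCA was found in 1.41% of the 32851 promoter windows of all genes, and in 1 of the 12 windows of the members, that of Apoa4 at position -182. TATAAA was found in 13.6% of all windows and in 5 of the 12 windows of the members, among them that of Apoa5 at position -31 and that of Apob at position -60. These 12 windows belong to 8 genes, and the pair of Apoa5 windows overlaps, so that the same TATAAA counts in both. The C/EBP core TTGCNCAA (2.94% of all windows) and the GC box GGGCGG (35.7%) were in none of the 12 windows. The Apod window held 37.3% G and C, the lowest share among the members, whose other windows held 47% to 59.3%, against a median of 52.7% over all windows. These matches describe the letters only.

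In WT mice 9 of the 10 members were higher in liver than in brain, heart and muscle, and Apod was lower in liver than in each of them. All 30 of these differences passed the threshold (limma over the 12 WT arrays, adjusted p below 0.05). Apoa1, Apoa4, Apob and Apom were tested against each other tissue only because they were well above background in liver. The same held for Apoa5 and Apoc3 against heart and muscle. For these a call of liver as higher was close to fixed in advance. Many genes differed between tissues. Of the 16645 genes tested against brain 42.6% were higher and 36.9% lower in liver, of the 15438 tested against heart 34.5% and 38.6%, and of the 14894 tested against muscle 37.4% and 40.2%. Fewer cells of a type and less RNA per cell cannot be told apart in such bulk samples. In the 3 KI mice, which did not enter that fit, the 30 differences had the same direction and each passed the threshold, with the brain of mouse C or without it. The same rule for testing a gene applied there.

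**Figure D1:**
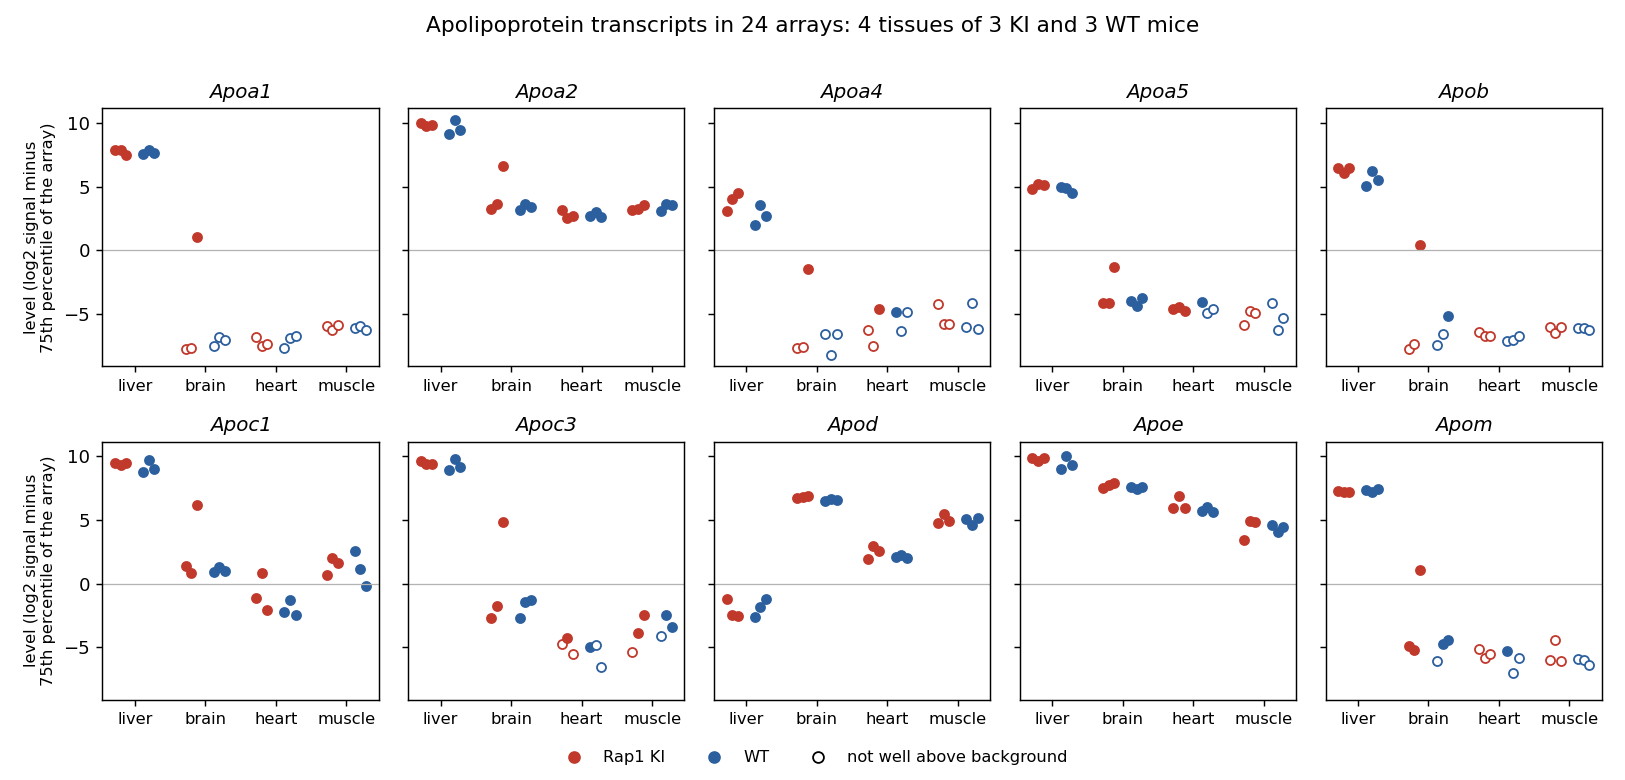
Level of each of the 10 apolipoprotein genes (log2 signal minus the array's 75th percentile, main probe) in each of the 24 arrays by tissue, red for KI and blue for WT; open circles are spots not well above background. A reader should see that 9 genes are highest in liver, that Apod is lowest there, and that for all genes but Apod and Apoe 1 red brain point (KI mouse C, 1.07 for Apoa1) stands far above the other 5 brains.

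Apoa1, the main protein of high-density lipoprotein, stood at 7.89, 7.87 and 7.46 in the KI livers and at 7.58, 7.84 and 7.61 in the WT livers. On all arrays of WT brain, heart and muscle it was not well above background, so that only a bound can be given, taken against the higher of the spot's own signal and the dimmest signal well above background on each array. Apoa1 was at least 14100-fold higher in WT liver than in WT brain, at least 6770-fold higher than in heart and at least 3430-fold higher than in muscle. The adjusted p of 5.2e-11, 4.09e-11 and 4.26e-11 by limma belong to the measured differences from spots at background, not to these bounds. As said above, these calls were close to fixed in advance. The 10 repeated Apoa1 spots on an array had an SD of 0.046 to 0.066 in the livers.

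Apob, the single protein that stays with a very-low-density particle from secretion to uptake, was read by a pair of probes. Probe A_55_P1957198 stood at 6.49, 6.05 and 6.44 in the KI livers and 5.03, 6.20 and 5.54 in the WT livers. Probe A_52_P441070 stood at 6.54, 6.54 and 6.21 in the KI livers and 6.54, 6.46 and 7.09 in the WT livers, so the probes did not order the livers alike. By A_52_P441070, which was not well above background outside liver in WT mice, Apob was at least 7180-fold higher in WT liver than in brain, 3430-fold than in heart and 1740-fold than in muscle. By the other probe, WT brain F was the only WT array outside liver with a signal well above background, at -5.13.

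Apom, a lipocalin bound to high-density lipoprotein and a carrier of sphingosine-1-phosphate, had the narrowest liver values of the members. The 6 livers lay at 7.25, 7.19 and 7.20 (KI) and 7.33, 7.22 and 7.40 (WT), a range of 0.21. Its SD within genotype was 0.07 in liver, which placed it at the 3.23 percentile of the 14091 genes tested there, whose median SD was 0.21. This depended on the scaling: with quantile normalization the 6 livers ran from 16.22 to 16.72 for Apom but from 18.90 to 18.97 for Apoe. Against WT muscle, where no array was well above background, Apom was at least 2680-fold higher in WT liver. Against WT brain and WT heart, where 2 of 3 and 1 of 3 arrays were well above background, it was higher by 12.37 ± 0.48 (SE) and 13.37 ± 0.48 on the log2 scale, values that rest in part on spots at background.

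Apoa4, which is known from intestine as well as liver and is induced by fasting and fat in the mouse, varied most between livers. It stood at 3.06, 4.05 and 4.53 in the KI livers and at 1.97, 3.57 and 2.65 in the WT livers, an SD within genotype of 0.77 that placed it at the 95.7 percentile of genes tested. Apoa4 was at least 459-fold higher in WT liver than in WT brain and at least 111-fold higher than in WT muscle. In WT heart, where 1 of 3 arrays was well above background, it was lower than in WT liver by 8.05 ± 0.70.

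Apoa5, an activator of triglyceride hydrolysis made by hepatocytes, stood at 4.78 to 5.20 in the KI livers and 4.49 to 4.96 in the WT livers. Outside liver no array exceeded -1.30. It was well above background in all 6 brains, at -4.41 to -3.78 in 5 of them and at -1.30 in KI brain C. Apoa5 was at least 458-fold higher in WT liver than in WT muscle and higher than in WT brain by 8.82 ± 0.45 on the log2 scale.

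Apoa2, the second protein of high-density lipoprotein, and the small exchangeable proteins C-I and C-III were bright in every liver. By probe A_55_P2178553 Apoa2 stood at 10.02, 9.74 and 9.85 in the KI livers and 9.11, 10.22 and 9.45 in the WT livers, and at 2.57 to 3.65 in the hearts, muscles and 5 of the brains. By its other probe, A_55_P1966035, the hearts lay at -1.86 to -1.38 and the muscles at -5.94 to -1.75, so the tissue difference depended on the probe: WT liver over WT muscle was 6.18 ± 0.28 by the first probe and 12.70 ± 0.69 by the second. By the second probe 2 of 3 WT muscles were well above background, so that its value rests in part on a spot at background. Apoc3, an inhibitor of lipoprotein lipase, was higher in WT liver than in WT brain by 11.10 ± 0.57, in heart by 14.75 ± 0.57 and in muscle by 12.63 ± 0.57 on the log2 scale. Of the WT arrays 1 of 3 in heart and 2 of 3 in muscle were well above background, so these last values rest in part on spots at background. A second Apoc3 probe, placed on another RefSeq transcript, stood at 0.05 to 0.65 in the livers and at -3.25 to -1.92 elsewhere, with steps of 2.55 to 3.31 in WT mice (each adjusted p below 0.05 by limma).

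Apoc1, another inhibitor of lipase and of particle uptake, was well above background in all 24 arrays. It stood at 8.73 to 9.71 in the livers, at 0.84 to 1.42 in 5 of the brains, at -2.45 to 0.87 in the hearts and at -0.17 to 2.54 in the muscles. In WT mice Apoc1 was higher in brain than in heart by 3.09 ± 0.59 (adjusted p = 0.000752 by limma) and in muscle than in heart by 3.16 ± 0.59 (adjusted p = 0.0012). Brain and muscle did not differ beyond their spread (difference -0.07, 95% interval from -1.38 to 1.24), and the 3 WT muscles alone ranged from -0.17 to 2.54. In the KI mice heart was below muscle too (difference -2.21), but this did not pass the threshold (adjusted p = 0.162). It did so when the brain of mouse C was left out of that fit (adjusted p = 0.0197, the difference again -2.21).

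Apoe, the ligand by which remnant particles are taken up by cells, was well above background in all 24 arrays. In WT mice it fell in the order liver (9.43 ± 0.54, SD, n = 3), brain (7.52 ± 0.10), heart (5.78 ± 0.19) and muscle (4.36 ± 0.29). Each neighbouring pair in that order differed beyond its spread: liver over brain by 1.91 ± 0.26 (SE, adjusted p = 5.03e-05 by limma), brain over heart by 1.74 ± 0.26 (adjusted p = 0.000129) and heart over muscle by 1.42 ± 0.26 (adjusted p = 0.00104). The Apoe signal was 62.4% to 75.4% of the scanner's saturation value in the livers and 32.4% to 47.8% in the brains. Before the percentile was subtracted, the WT signals were 484400 to 585500 in liver and 251500 to 370900 in brain. The part of the scanner's upper limit and of the percentile in the step from liver to brain was not tested. The KI livers gave 9.88, 9.63 and 9.83, the KI brains 7.52, 7.76 and 7.88, the KI hearts 5.93, 6.85 and 5.95 and the KI muscles 3.45, 4.93 and 4.88, so the order held in each KI mouse. The Apoe probe is repeated on 10 spots, and their SD within an array was 0.105 to 0.155 in liver and 0.023 to 0.050 in heart.

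Apod had its highest level in brain. In WT mice it fell from brain (6.55 ± 0.07, SD, n = 3) to muscle (4.95 ± 0.28), heart (2.13 ± 0.15) and liver (-1.87 ± 0.73). Muscle was below brain by 1.60 ± 0.31 (SE, adjusted p = 0.00076 by limma), heart below muscle by 2.81 ± 0.31 (adjusted p = 4.05e-05) and liver below heart by 4.00 ± 0.31 (adjusted p = 8.62e-07). A dimmer second probe, A_55_P2055158, gave the same order, but its step from brain to muscle was 0.99 ± 0.79 and did not pass the threshold (adjusted p = 0.281). Within genotype the 6 brains differed little, with an SD of 0.06 that lay at the 1.26 percentile of the 16073 genes tested in brain.

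Between brain and heart 4 of the 6 members tested were higher in WT brain (Apoc1, Apod, Apoe and Apoc3), with 32.7% of all 16528 genes tested higher and 41.7% lower in brain. Of these Apoc3 was tested only because it was well above background in brain, since only 1 of 3 WT hearts was. Between brain and muscle 4 of 6 were higher in brain (34.7% of all 16245 genes, with 42.6% lower), namely Apod, Apoe, Apoc3 and Apoa5. The WT ranges of Apoc3 and Apoa5 overlapped, and both were tested only because they were well above background in brain. No WT muscle was well above background for Apoa5, so that the size of its difference is not given, and 2 of the 6 were called without mouse E or without mouse F. Between heart and muscle 2 of the 4 tested were higher in muscle (Apoc1 and Apod, 27.4% of all 14878 genes) and Apoe was higher in heart (29% of all genes).

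Most members lie in gene clusters, and their neighbours were read from the gene order of the same assembly. On chromosome 9 the order Apoa1, Apoc3, Apoa4, Apoa5 is flanked by Pafah1b2 and Sik3 on one side and Zpr1 and Bud13 on the other. On the log2 scale the WT liver mean exceeded that of the highest other tissue by 11.10 for Apoc3 and 8.82 for Apoa5, and by at least 11.74 for Apoa1. For Apoa4 it exceeded the heart mean by 8.05, but over muscle only a bound of at least 6.80 can be given. The liver mean was below the highest other tissue for each of the flanking genes, by -1.11 for Pafah1b2, -0.91 for Sik3, -0.45 for Zpr1 and -0.75 for Bud13. On chromosome 7, Apoc1 and Apoe are followed by Apoc2 and Apoc4 on one side, both apolipoproteins of the same cluster with liver excesses of 11.01 and 12.92 (Apoc4 was not well above background on all 3 arrays of any other tissue), and by Tomm40 (-0.50) and Nectin2 (0.05) on the other. For the single members the excess was 12.37 for Apom over brain (at least 11.39 over muscle) beside -1.01 for Bag6. It was at least 9.66 for Apob beside 0.88 for Ldah, and 6.18 for Apoa2 beside -3.85 for Tomm40l and 0.27 for Fcer1g. Nr1i3, the next gene after Tomm40l, had an excess of 3.85. For Apod it was -8.42, beside 1.10 for Bdh1 and -1.05 for Ppp1r2.

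**Figure D2:**
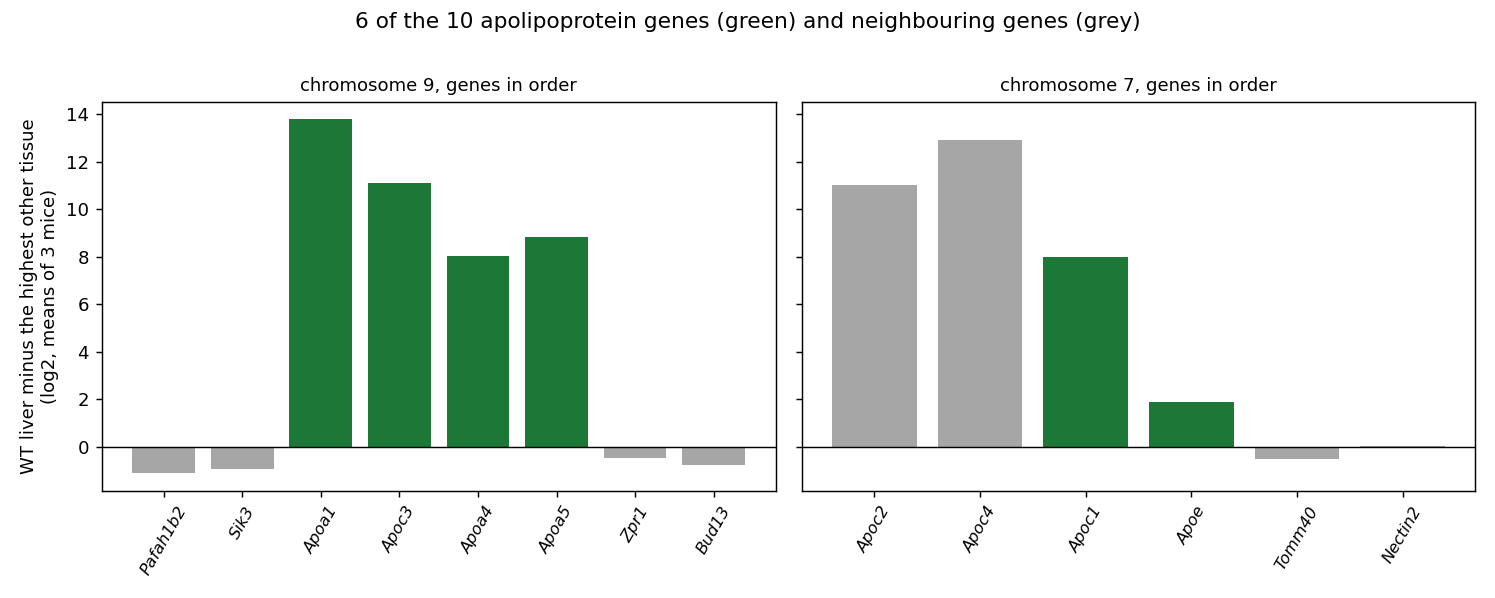
WT liver mean minus the mean of the highest other tissue (log2, 3 mice per tissue) for genes in chromosome order in the 2 apolipoprotein clusters. Green bars are members and grey bars neighbours. Several other-tissue means are not well above background, so that the bar of Apoa1 holds only as at least 11.74 and that of Apoa4 only as at least 6.80. All 4 members on chromosome 9 rise by at least 6.80 between flanking genes at or below 0, and on chromosome 7 Apoe stands at 1.91 beside Apoc1 at 7.98, with Apoc2 and Apoc4 (grey) also liver-high. The Apoe bar rests on liver spots at 62.4% to 75.4% of the scanner's saturation value.

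The genes whose pattern over the 24 arrays was most like a member were found by Pearson correlation over 17164 genes, as a description in which the 4 tissues carry most of the variance. Apoa1 was closest to Cyp1a2 (r = 0.9994), Apob to Sult2a2 (0.9985), Apoc3 to Uox (0.9961), Apom to Ugt2b38 (0.9959), Apoa2 to C4bp (0.9948), Apoa5 to Gramd1c (0.9944) and Apoc1 to Rbp4 (0.9876). Apoe was closest to Rusf1 (0.9876), Tlcd1 and Prelid1, and Apod to Sfxn3 (0.9869), Atp6v0e2 and Ankrd13b.

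Of the other genes of the lipoprotein pathway, 88 were listed in 5 groups. Over all 16645 genes tested, 42.6% were higher and 36.9% lower in WT liver than in WT brain, which are the shares to set beside the counts below. A gene well above background in only 1 of the tissues compared was tested too. The direction of such a call was close to fixed in advance, and its size rests on spots at background in the other tissue. Of the 18 other apolipoproteins on the array, 11 were bright enough to be tested between genotypes in brain. Among other apolipoproteins 16 of 17 tested were higher in WT liver than in WT brain and none was lower, with Apon (13.55) and Apof (12.37) of the smallest p. Their median difference was 9.20, against 0.17 over all genes. Lipases and their regulators were higher in liver than in brain for 11 of 12. Lpl, the lipase of vessel walls in fat-burning tissue, was lower in liver than in heart by -8.10 ± 0.27 and than in muscle by -5.74 ± 0.27. Among receptors, 12 of 20 were higher and 6 lower in liver than in brain. The neuronal receptor of apolipoprotein E, Lrp8, was lower in liver by -7.76 ± 0.39, and the sorting receptors Sort1 (-5.54 ± 0.25) and Sorl1 (-4.05 ± 0.27) were lower too. Assembly and efflux genes were higher in liver than in brain for 14 of 19 and lower for 3, and the transcription factors of these genes for 14 of 18 and 2, with the bile acid receptor Nr1h4 higher by 11.52 ± 0.23. All of these passed the threshold by limma in WT mice.

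The comparison of KI with WT mice asked whether the mutation was accompanied by a change of these transcripts within a tissue. No member passed the threshold in any tissue, in the mean of the 4 tissues of a mouse, or in the test of whether the genotype difference varied between tissues. All 10 members could be tested in liver, while 7 were bright enough in brain, 5 in heart and 4 in muscle. The background was the same, since limma called 0% of all genes in each of these tests: liver had 14091 genes tested, brain 16073, heart 14929, muscle 13516 and the tests over tissues 17174. At an unadjusted p under 0.05 liver had 1653 genes (11.7%), brain 127 (0.79%), heart 238 (1.59%) and muscle 112 (0.829%), with 1 member among them, Apob in liver. In the mean over tissues these were 604 (3.52%) and in the test between tissues 320 (1.86%), with no member. In that mean Apom alone of the members had no overlap between genotypes (0.77 ± 0.36, adjusted p = 0.985 by limma), as had 8.9% of all genes, and without mouse C its difference was 0.35 ± 0.13 (adjusted p = 1). Without mouse C brain had 163 genes at an unadjusted p under 0.05.

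In liver the KI and WT ranges overlapped for all 10 members, whereas 19.8% of all genes had no overlap. Apoa4 had the widest difference, 1.15 ± 0.50 (SE, 95% interval from -0.06 to 2.35, adjusted p = 0.432 by limma), with WT liver E above KI liver A. Apob gave 0.74 ± 0.30 by the main probe (interval from 0.01 to 1.46, adjusted p = 0.421) and -0.27 ± 0.21 by the other probe, so its direction depended on the probe. Apoe gave 0.35 ± 0.27 (interval from -0.29 to 1), Apoa2 0.28 ± 0.28, Apoa5 0.27 ± 0.18, Apoc1 0.24 ± 0.25, Apoc3 0.18 ± 0.24 and Apoa1 0.06 ± 0.16. Under quantile normalization Apoa1, Apoa2, Apoc1 and Apoc3 turned to -0.08, -0.03, -0.05 and -0.11, while Apoe came to 0.01 and Apom to -0.27. Apom differed by -0.11 ± 0.11 with an interval from -0.38 to 0.16, the narrowest of the 10, and Apod by -0.18 ± 0.47. Macrophage markers, a cell type that also makes Apoe, had a mean level of 1.04 to 1.38 in the KI livers and 0.40 to 0.82 in the WT livers (7 of 8 markers well above background on every liver array, summed linear level 56.3 to 62.6 against 37.7 to 48.9). Fibroblast means (2.03 to 2.32 against 1.55 to 1.71) and microglia means (1.75 to 2.14 against 1.31 to 1.40) lay apart too, while hepatocyte and endothelium means overlapped. The part of these cell types in the Apoe value was not tested.

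**Figure D3:**
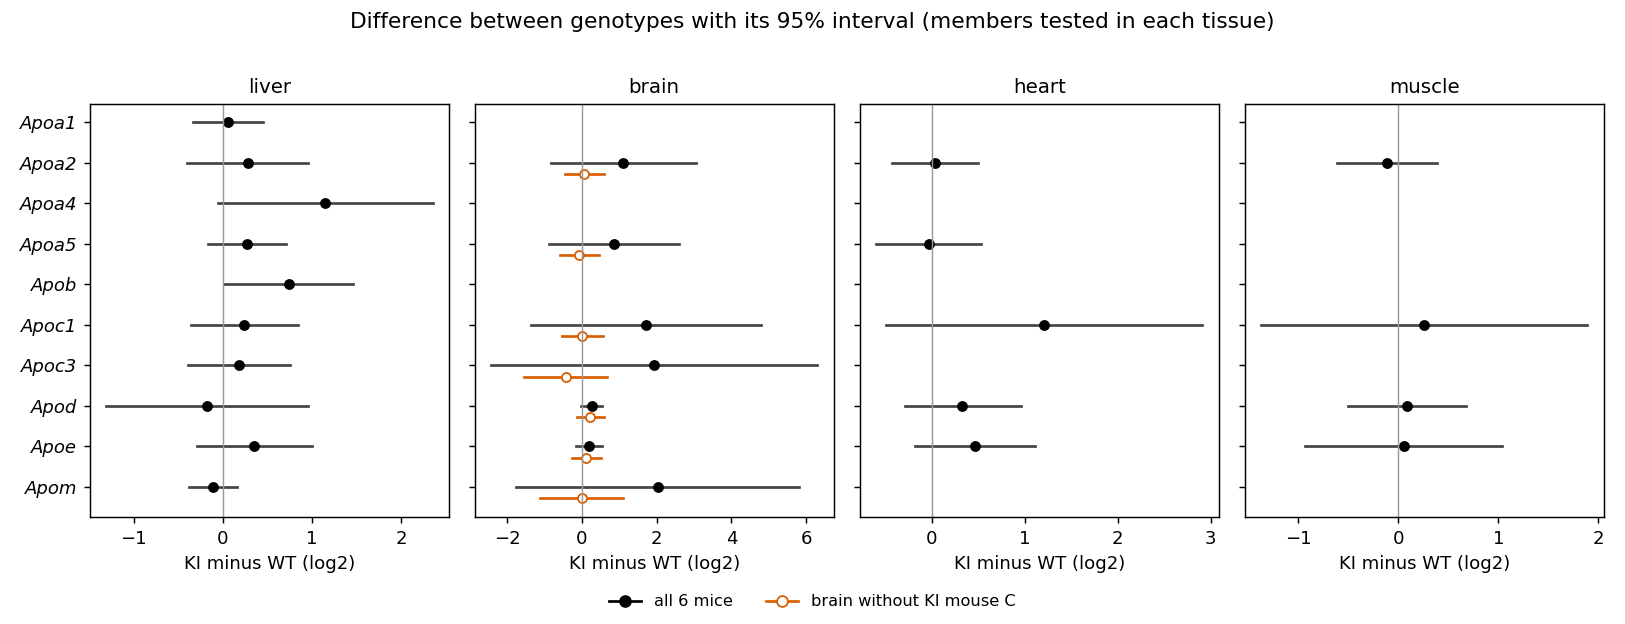
Difference between KI and WT mice (log2) with its 95% interval for the members tested in each tissue, black for all 6 mice and orange for brain without KI mouse C; the horizontal scales differ between panels. The liver values lie between -0.18 and 1.15, and in brain Apoa2, Apoa5, Apoc1, Apoc3 and Apom move to between -0.43 and 0.06 once mouse C is left out.

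The spread of 4 bright members between livers followed the brightness of the array. On at least 1 liver array Apoa2, Apoe, Apoc3 and Apoc1 reached 83.9%, 75.4%, 71.3% and 62.8% of the scanner's saturation value, although no spot was marked saturated. By the main probe of each, their raw signals ranged over 0.26 to 0.46 on the log2 scale across the 6 livers, while the 75th percentile of the same arrays ranged over 1.28. After the percentile was subtracted, each was lowest in WT liver D, the array with the highest percentile (1136), and highest in WT liver E, the array with the lowest (467.8). The second Apoa2 probe, at 51.1% to 71.1% of saturation, had a raw range of 0.48. It too was lowest in WT liver D (8.66), but it was highest in KI liver C (9.88), with WT liver E at 9.73. Apoa1 and Apom, at no more than 28.1% and 23.6% of saturation, had raw ranges of 1.08 and 1.39 and level ranges of 0.43 and 0.21. Apob probe A_55_P1957198, at no more than 6.56% of saturation, nevertheless had a raw range of 0.57 and a level range of 1.46, whereas the other Apob probe had 1.62 and 0.89. The part of the scanner's upper limit in these values was not tested.

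**Figure D4:**
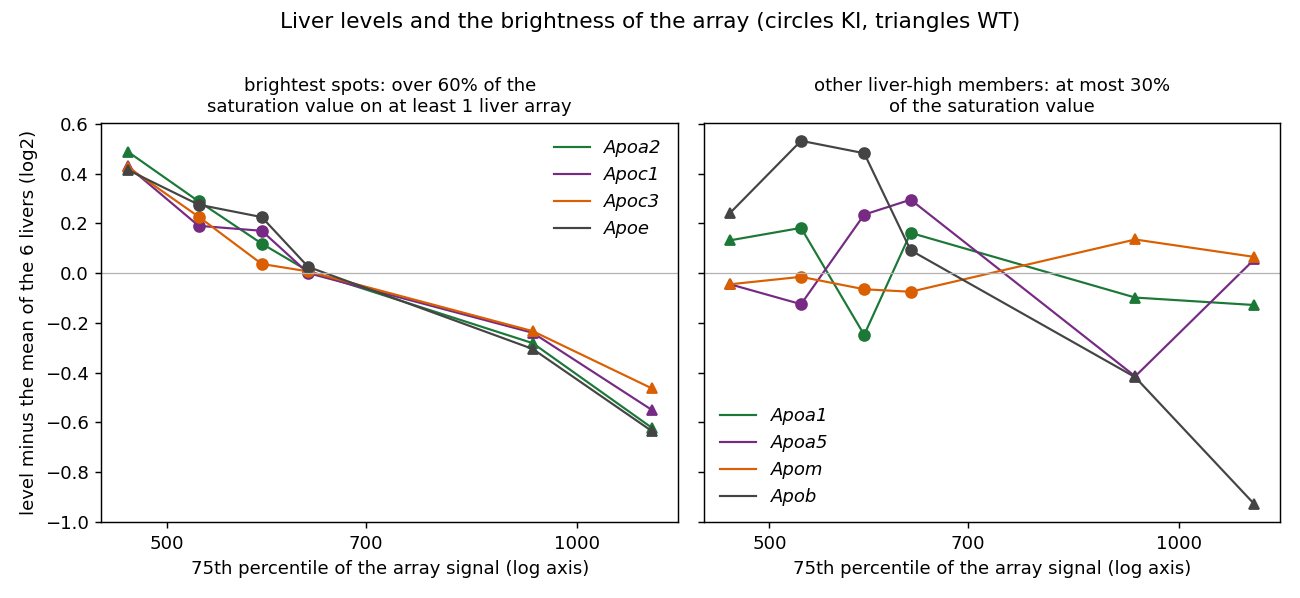
Level of 8 members in the 6 livers minus the mean of the 6 (log2), against the 75th percentile of the array's signal on a log axis; circles are KI and triangles WT mice. In the left panel all 4 bright members fall from the dimmest array (467.8) to the brightest (1136), and in the right panel Apob alone shows a fall of this size.

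In brain 5 members, Apoa2, Apoa5, Apoc1, Apoc3 and Apom, had KI means above WT by 0.87 to 2.03, with SEs of 0.74 to 1.84. Leaving out KI mouse C moved them to 0.06 ± 0.22 for Apoa2, -0.07 ± 0.22 for Apoa5, 0.01 ± 0.23 for Apoc1, -0.43 ± 0.47 for Apoc3 and -0.0023 ± 0.46 for Apom, none past the threshold (adjusted p = 1 for each by limma). Both genes with a known brain source changed little on leaving it out: Apoe went from 0.20 ± 0.15 to 0.12 ± 0.16 and Apod from 0.26 ± 0.12 to 0.23 ± 0.15. Apod was 6.74, 6.81 and 6.85 in the KI brains and 6.48, 6.61 and 6.55 in the WT brains, the single member with no overlap between genotypes in a tissue, where 2.82% of all genes had none. Its adjusted p was 1, and its other probe gave -0.18 ± 0.18 with overlapping groups. The mean level of 6 oligodendrocyte markers was 3.41 to 3.97 in the KI brains and 3.60 to 3.83 in the WT brains.

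In KI brain C, members known from hepatocytes were present as a share of the same mouse's liver. Apoa1 stood at 1.07 there, against -7.76 to -6.82 in the other brains, where it was not well above background. Taken relative to each array, its signal in brain C was 1.19% of that in liver C. The share was 1.15% for Apoa5, 1.41% for Apom, 1.55% for Apoa4 and 1.60% and 1.58% by the pair of Apob probes, all with a liver signal of at most 13.3% of saturation. For the members whose liver signal was 52% to 71.1% of saturation the share was larger, 4.26% for Apoc3, 5.90% and 10.3% by the Apoa2 probes and 10.6% for Apoc1. The 12 hepatocyte markers had a median share of 3% in mouse C (0.996% to 14.5%) and medians of 0.00737% to 0.0451% in the other 5 mice, and all 12 were well above background in brain C. The choroid plexus markers of brain C had a mean level of 2.73, with WT brain E at 2.70.

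**Figure D5:**
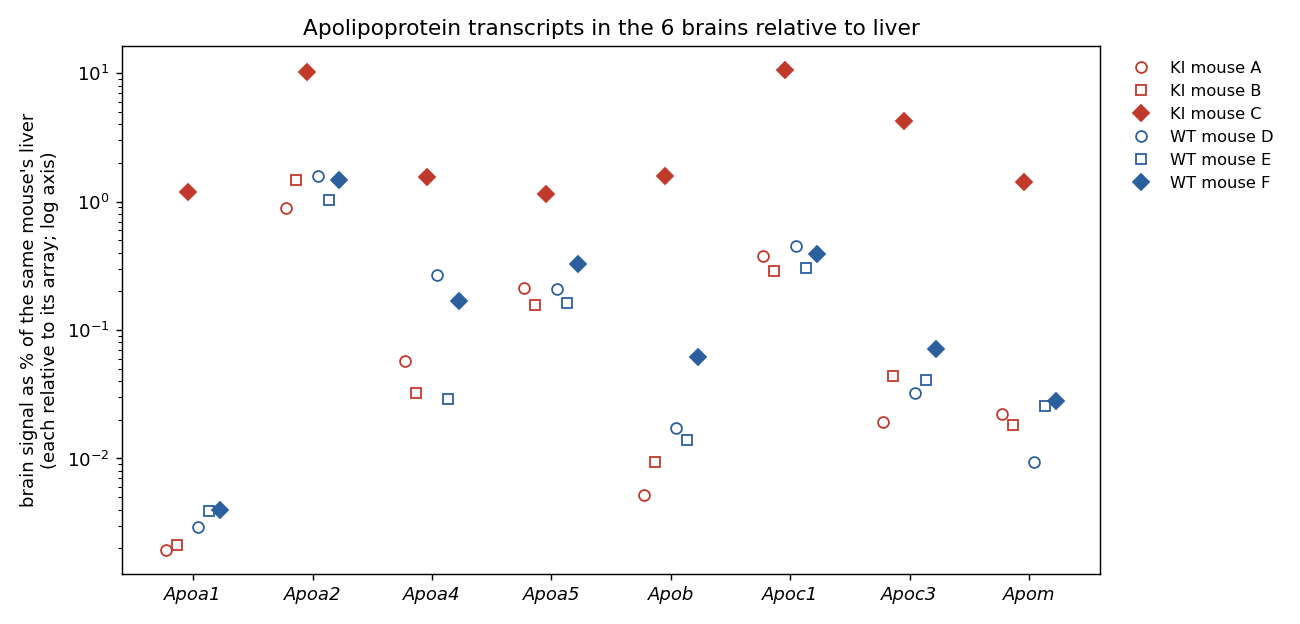
Brain signal as a percentage of the same mouse's liver signal, each relative to its array, for 8 members in the 6 mice on a log axis; many values below 0.1% are spots not well above background. KI mouse C lies between 1.15% and 10.6% for all 8 genes and above the other 5 mice for each.

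Smaller traces differed between the other brains. Apoc3 stood at -2.72 and -2.67 in KI brain A and WT brain D, which shared a slide with the livers. It stood at -1.74, -1.43 and -1.30 in KI brain B and WT brains E and F, which shared another slide with KI brain C. The second Apoa2 probe stood at -1.54 and -1.56 in A and D and at -1.17, -0.46 and -0.43 in B, E and F. Not all members were split by slide: Apoc1 stood at 1.42 and 0.95 in A and D and at 0.84, 1.35 and 1.03 in B, E and F. Apom overlapped too, at -4.88 and -6.04 against -5.23, -4.71 and -4.40. The hepatocyte markers had mean levels of -4.73 and -5.75 in A and D and of -4.16, -2.78 and -2.31 in B, E and F. With the slide as a block in the fit of the 6 brains, the genotype differences of the 7 members kept their direction and none passed the threshold.

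In heart, Apoc1 gave 1.21 ± 0.72 (SE, adjusted p = 0.978 by limma) and Apoe 0.47 ± 0.27 (adjusted p = 0.978), and KI heart B carried most of both. Apoc1 stood at -1.12, 0.87 and -2.05 in the KI hearts and -2.19, -1.30 and -2.45 in the WT hearts, and without heart B the difference was 0.39 ± 0.43. Apoe without heart B gave 0.16 ± 0.15. In heart B macrophage markers had a mean of 0.25 (8 of 8 well above background, summed level 22.7), against -1.18 to -0.55 and 11.4 to 13.3 in the other 5 hearts. Adipocyte markers had a mean of 1.47 there against -0.98 to 0.12, with a summed level of 166 against 166 to 229, and 10 of 12 hepatocyte markers were well above background there against 4 to 6. Their part in these values was not tested. No member was without overlap in heart, where 4.82% of all genes were. Apod gave 0.33 ± 0.26 there, Apoa2 0.03 ± 0.20 and Apoa5 -0.03 ± 0.24. In heart the slides follow age, with mice C and F on one and the others on another.

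In muscle the 4 members tested differed by -0.11 ± 0.21 (Apoa2), 0.26 ± 0.69 (Apoc1), 0.09 ± 0.25 (Apod) and 0.06 ± 0.41 (Apoe) on the log2 scale, each with an adjusted p of 1, and the genotypes overlapped for all 4 (3.6% of all genes did not). The interval for Apoe ran from -0.93 to 1.04, with KI muscle A, at 3.45, the lowest of the 6. The interval for Apoc1 ran from -1.37 to 1.89.

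No gene of the 5 pathway groups passed the threshold between genotypes either. Among those of the smallest unadjusted p in liver were Nr2f1 (0.53 ± 0.15, adjusted p = 0.375 by limma) and the clock repressor Nr1d1 (-0.50 ± 0.16, adjusted p = 0.397). In heart these were the sterol acyltransferase Soat2 (0.77 ± 0.16) and Apoc2, the activator of lipoprotein lipase, at -2.35, -1.95 and -2.45 in the KI and -2.89, -3.22 and -3.07 in the WT hearts (0.80 ± 0.18, adjusted p = 0.978), and Tm6sf2 (0.39 ± 0.17). In brain they were Tm6sf2 (0.62 ± 0.20), Saa2 (1.96 ± 0.89) and Angptl8 (0.71 ± 0.34), each highest in KI brain C and at 0.42 ± 0.16, 1.02 ± 0.60 and 0.30 ± 0.16 without it, and in muscle Apol6 (0.68 ± 0.43) and Rxra (-0.38 ± 0.29).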

How the data were processed

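RNA from 24 mouse tissue samples was measured on 1-colour Agilent arrays, 1 array per sample. The authors' scanner software (Feature Extraction, per the file headers) gave each spot a background-subtracted, spatially detrended intensity, which was deposited without normalization between arrays. The deposited value table holds a score per probe: over 33912 features it equalled the log processed signal of an array, centred and scaled to unit SD, within 0.005. Outlier spots and controls were left out, repeated spots were averaged, and log2 intensity minus the array's 75th percentile was used. Probes were named through RefSeq mRNA accessions, of which 99% matched, and the probe with the highest mean stood for a gene. A gene was tested where 1 or more of the groups compared had it well above background in all 3 mice, using limma 3.58.1 (R 4.3.3, lmFit and eBayes) and Benjamini-Hochberg adjustment at 0.05. Comparisons were KI against WT within a tissue, over the mean of the tissues and between tissues, and each pair of tissues in WT mice.

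The labels number the mice, so tissues were paired by animal. The correlation of arrays of 1 mouse was -0.00204 in limma's estimate, and the mouse was used as a block in an alternative. Other alternatives were quantile normalization, normexp background correction, no filter, all probes, the scores, the slide as a block, KI in place of WT mice and leaving out each mouse. An exact permutation test of 3 against 3 cannot go below 0.1 and was not used. The number of arrays limits the precision. Members and lists were chosen with earlier results of these data known. Text names all members, pathway genes by smallest p, the genes most alike and chromosome neighbours. The scripts were tested on simulated data. RNA kits differed between liver with brain and heart with muscle, so kit and tissue cannot be told apart there. All columns were assigned to a sample. A few values that the rule for named genes would give are not reported here.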

Additional observations from a re-analysis of the deposited data

How the results depend on the processing

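No member passed the threshold between genotypes under any alternative, and the 30 differences of liver from another tissue kept direction and call under each alternative run for them, which leaves out the slide as a block. For Apoa1, Apoa4, Apob and Apom, and for Apoa5 and Apoc3 against heart and muscle, these calls were close to fixed in advance. Keeping them is therefore no test of those differences. Of the genotype differences, whose intervals include values on both sides of 0 for all but Apob in liver, quantile normalization turned Apoa1 (-0.08), Apoa2 (-0.03), Apoc1 (-0.05) and Apoc3 (-0.11) in liver. Normexp correction turned Apod in liver (0.0022) and Apoa5 in heart (0.04). The other probe turned Apob (-0.27) and Apoc3 (-0.20) in liver, Apoc3 (-0.02) and Apod (-0.18) in brain, Apoa2 (-0.05) and Apod (-0.13) in heart and Apod in muscle (-0.34). The difference of Apoc1 between WT brain and muscle became 0.02 with quantile normalization, 0.03 with the deposited scores and 1.38 in the KI mice, or -0.32 in the KI mice with the brain of mouse C left out, an alternative chosen after seeing the data.

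Leaving out 1 mouse at a time turned differences within these ranges: in liver Apoa1 from -0.01 to 0.20, Apoc3 from -0.01 to 0.44 and Apod from -0.59 to 0.17, in brain Apoa5 from -0.07 to 1.34, Apoc3 from -0.43 to 3.37 and Apom from -0.0023 to 3.13, in heart Apoa2 from -0.13 to 0.16 and Apoa5 from -0.23 to 0.21, and in muscle Apoc1 from -0.42 to 0.94, Apod from -0.12 to 0.24 and Apoe from -0.20 to 0.54. Apoc1 between WT brain and muscle ranged from -0.71 to 0.69, and the members called between these tissues numbered 2 to 4.

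With all 24 arrays and the mouse as a replicate block, 2 genes that are no members were called in liver, Pla2g4f (3.27) and Tmem255a (1.52), each with an adjusted p of 0.0153 by limma. The replicate block changed no call of a member. The test of whether the genotype effect varied between tissues called 1 gene with quantile normalization (Bves), and 0 to 1 on leaving out a mouse: Lrrc6 without mouse D and Nags without mouse B. With every probe tested, 25887 probes were called between WT liver and brain, 21042 between liver and heart, 21453 between liver and muscle, 24267 between brain and heart, 24772 between brain and muscle and 14285 between heart and muscle, since more features were tested. With no filter on dim probes 5 members were called between WT heart and muscle. The cause of the other changes was not tested. Signal at background leaves bounds only for Apoa1, Apob, Apoa4, Apoa5 and Apom in some tissues.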
